A study of Mus musculus with 12 samples.

Results

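Germline and meiosis genes are genes that mammals use in the making of eggs and sperm, and 35 of them were followed here in the mouse osteosarcoma lines Dunn and LM8. They were chosen by name, as germ cell, piRNA pathway or meiosis genes, and partly because such genes are known for silencing by DNA methylation in somatic cells. The choice does not mean that the promoter of each gene is a known target. The arrays' probes were assigned to the genes through their accessions. Of the 35 genes, 34 had a matched probe, with 40 probes in all, out of 20144 genes and 39429 probes on the arrays. Piwil4 had no matched probe. DNA methylation itself was not measured.

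Dunn is a mouse osteosarcoma line of osteoblastic character that metastasises little, and the highly metastatic LM8 line was derived from it. Dunn cells were compared at passage 25 (early) and passage 86 (late), and LM8 cells at passage 24 (early) and passage 91 (late). All 4 groups were grown in the same serum-containing medium, with no other treatment. Frozen cells of each passage were thawed and cultured for 3 more passages before the RNA was taken, so that late cells descend from the early cells of their line. Each group had 3 RNA samples, each on 1 Agilent single-colour array; whether these came from separate cultures is not given in the sources used here, so the p-values measure the spread between these samples, which may be technical.

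In somatic cells many germline promoters carry CpG methylation that is laid down around implantation, and a complex of E2f6, Pcgf6, Mga and Max together with H3K9 methyltransferases also acts on them. Loss of this methylation, in mutants or under drugs that inhibit Dnmt1, is known to switch some of these genes on outside the germline. The piRNA pathway silences transposons in germ cells. In meiosis, cohesins hold sister chromatids together, whereas the chromosome axis and the synaptonemal complex serve the pairing of homologous chromosomes. The comparison of early and late cells asks whether long culture switched such genes on.

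Promoter sequence is shown for 5 of the genes, because the CpG pairs that methylation acts on lie there and because these genes stand for the patterns described below. The 250 bases before each start site were read from RefSeq (assembly GRCm38.p6), are given in the direction of the gene, and have each CpG in capitals. Dazl, an RNA-binding protein of germ cells, was well above background on no array (chr17:50293621-50293870, minus strand). Sycp3, of the lateral elements of the synaptonemal complex (chr10:88459337-88459586, plus strand), and Tex14, of the intercellular bridges of germ cells (chr11:87404815-87405064, plus strand), had fitted differences with passage of opposite sign in the 2 lines. Neither of these 2 genes was detected on any Dunn array or passed the adjusted test of the interaction of line and passage. Brdt, a bromodomain protein of the testis (chr5:107330944-107331193, plus strand), was brighter in LM8 than in Dunn cells. Nanos3, an RNA-binding protein of primordial germ cells (chr8:84176553-84176802, minus strand), was well above background on all 12 arrays.
Dazl: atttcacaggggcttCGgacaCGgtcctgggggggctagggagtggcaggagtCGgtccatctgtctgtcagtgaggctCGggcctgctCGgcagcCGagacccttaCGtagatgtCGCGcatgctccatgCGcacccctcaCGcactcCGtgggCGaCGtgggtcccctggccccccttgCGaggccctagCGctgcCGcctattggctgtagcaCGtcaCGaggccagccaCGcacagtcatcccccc
Sycp3: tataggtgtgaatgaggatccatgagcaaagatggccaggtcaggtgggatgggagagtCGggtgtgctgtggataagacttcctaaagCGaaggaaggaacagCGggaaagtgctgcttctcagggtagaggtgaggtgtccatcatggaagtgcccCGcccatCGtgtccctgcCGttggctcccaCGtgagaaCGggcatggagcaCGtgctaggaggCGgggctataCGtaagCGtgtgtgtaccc
Tex14: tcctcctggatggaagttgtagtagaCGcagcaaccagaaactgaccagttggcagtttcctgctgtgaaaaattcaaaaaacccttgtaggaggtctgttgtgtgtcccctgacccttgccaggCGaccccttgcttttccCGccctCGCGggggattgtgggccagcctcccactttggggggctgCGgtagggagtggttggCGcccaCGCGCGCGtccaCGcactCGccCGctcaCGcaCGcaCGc
Brdt: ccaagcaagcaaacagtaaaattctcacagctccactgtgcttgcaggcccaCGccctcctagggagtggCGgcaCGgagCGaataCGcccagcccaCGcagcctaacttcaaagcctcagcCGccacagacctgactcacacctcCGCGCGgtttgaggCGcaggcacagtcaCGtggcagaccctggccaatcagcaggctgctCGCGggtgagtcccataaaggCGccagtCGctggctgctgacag
Nanos3: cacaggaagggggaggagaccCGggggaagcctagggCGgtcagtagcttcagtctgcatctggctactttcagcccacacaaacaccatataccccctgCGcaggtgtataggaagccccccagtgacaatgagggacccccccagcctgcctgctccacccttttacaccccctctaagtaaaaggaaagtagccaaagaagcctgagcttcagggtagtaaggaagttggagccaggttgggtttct
The printed stretches held 20 CpG pairs in Dazl, 12 in Sycp3, 17 in Tex14 and 16 in Brdt, against 3 in Nanos3.

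All values are Agilent's processed signal, a spot's intensity corrected for background by the scanner software, on the log2 scale and relative to the 75th percentile of the array (scaled log2 signal). A probe counts as detected where the software marked it well above background; the signal of a probe that is not so marked is given as measured, and it says nothing of whether the RNA was absent. Depth differed between arrays. The 75th percentile ran from 287 to 603 signal units on early Dunn arrays, from 686 to 961 on late Dunn, from 893 to 1316 on early LM8 and from 1166 to 1903 on late LM8 arrays. The lowest scaled log2 signal counted as well above background was -3.58 on early Dunn replicate 1 and -4.68 on early Dunn replicate 3. It was -4.38 on late Dunn replicate 1, but between -5.84 and -7.21 on the other arrays. Early Dunn replicates 1 and 3 had the smallest shares of all genes detected, at 48.5% and 52.7%. The share was largest on late Dunn replicate 1, at 66.8%, despite its higher limit. Late Dunn replicate 1 also stood apart, with a correlation of 0.918 with either of the other late Dunn arrays, which correlated with each other at 0.986. The 3 slides each held 1 array of each group at a fixed position, so that position and group cannot be told apart. As to identity, all 7 osteoblast genes with a probe (Runx2, Sp7, Col1a1, Col1a2, Alpl, Ibsp and Spp1) were well above background on all 3 arrays of at least 1 group. So were 62.8% of all genes. Only 4 of the 7 (Col1a1, Ibsp, Runx2 and Sp7) were detected on all 12 arrays, and Bglap, also listed, had no matched probe. Among 14 markers of other cells, 7 were detected on all 3 arrays of at least 1 group (Dhh, Nanog, Pecam1, Prm1, Prm2, Rhox5 and Tnp1) and 3 on no array (Cdh1, Cdh5 and Tnp2).

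Most of the germline genes were at the background in both lines at both passages. Of the 34 genes with a probe, 17 were well above background on no array, compared with 21.0% of all genes. Only 6 (Brdt, Dnd1, Nanos3, Rec8, Sohlh2 and Tex101) were detected on all 3 arrays of at least 1 group, compared with 62.8% of all genes, and of these only Nanos3 and Rec8 were detected on all 12 arrays. The remaining 11 were detected on some arrays but never on all 3 of a group. Detection on all 3 arrays of the group was found for 2 of the 34 genes at passage 25 of Dunn (44.3% of all genes), 3 at passage 86 of Dunn (53.4%), 5 at passage 24 of LM8 (58.8%) and 6 at passage 91 of LM8 (60.8%). The count rose together with the share of all genes, and the part of array depth in it was not tested.

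**Figure D1:**
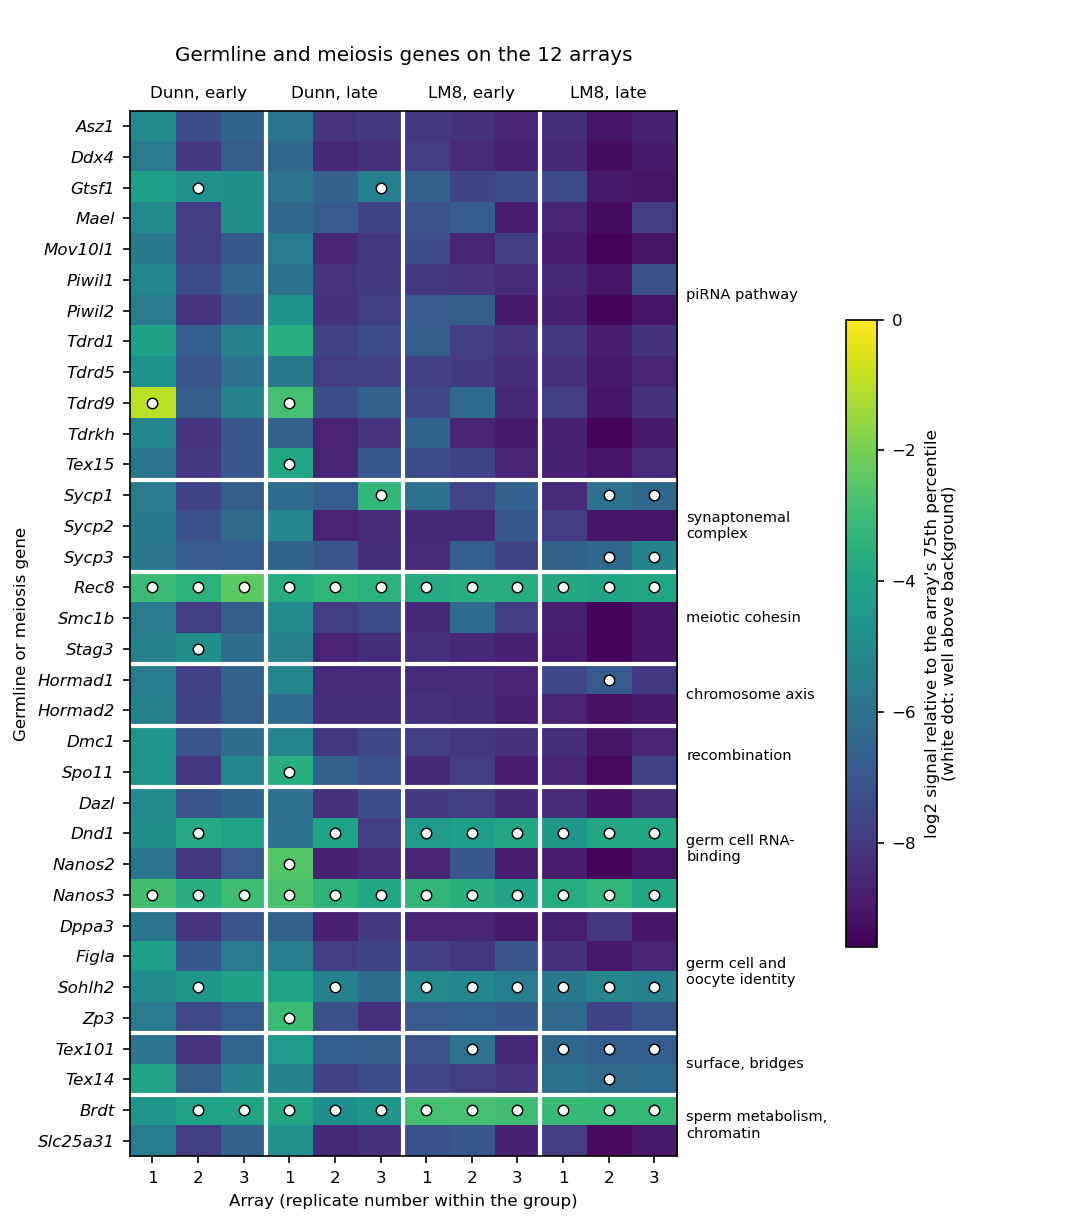
Scaled log2 signal (colour) of the 34 germline and meiosis genes with a probe (vertical axis, ordered by role; the probe with the highest mean for genes with several) on the 12 arrays (horizontal axis, 3 replicates in each of 4 groups). White dots mark signals well above background; only Nanos3 and Rec8 have a dot on all 12 arrays, and 4 genes have their only dot on late Dunn replicate 1.

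In the piRNA pathway, the synaptonemal complex, the chromosome axis and recombination, no gene was detected on all 3 arrays of a group. The piRNA pathway was the largest of these sets. Of its 12 genes with a probe, 9 were well above background on no array: the PIWI proteins Piwil1 and Piwil2, the helicases Ddx4 and Mov10l1, the Tudor domain proteins Tdrd1, Tdrd5 and Tdrkh, and Mael and Asz1. The other 3 (Tex15, Tdrd9 and Gtsf1) were detected on 1 or 2 arrays each. In the synaptonemal complex, Sycp2 was detected on no array, Sycp1 on 3 arrays and Sycp3 on 2. Of the meiotic cohesins, Rec8 was detected throughout, Stag3 on 1 array and Smc1b on none. Of the 2 genes of the chromosome axis, Hormad1 was detected on 1 array by each of its 2 probes and Hormad2 on none. Of the recombination genes, Spo11, which makes the double-strand breaks of meiosis, was detected on 1 array, and the strand exchange protein Dmc1 on none by any of its 3 probes. Dazl, the oocyte factors Dppa3 and Figla and the sperm ADP/ATP carrier Slc25a31 were also detected on no array. The 20 probes of the 17 undetected genes had scaled log2 signals of -8.15 to -4.10 in early Dunn, -8.75 to -3.55 in late Dunn, -8.93 to -6.26 in early LM8 and -9.51 to -7.23 in late LM8 cells. Their medians of -6.59, -7.81, -8.15 and -8.85 lay near the medians of all 9917 probes that were never detected, which were -6.59, -7.89, -8.31 and -8.75 in the same order.

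Nanos3 and Rec8 were the only genes of the list detected on all 12 arrays. The scaled log2 signals of Nanos3, which keeps primordial germ cells alive, were -2.91, -3.59 and -2.99 in early Dunn (replicates 1 to 3, the order used throughout), -2.77, -3.37 and -3.85 in late Dunn, -3.28, -3.56 and -4.01 in early LM8, and -3.67, -3.29 and -3.88 in late LM8 cells. The 4 groups overlapped. The difference between late and early cells was -0.16 in Dunn (SE 0.42, limma adjusted p = 0.972) and 0.00 in LM8 cells (SE 0.27, limma adjusted p = 0.995). Rec8, the meiotic form of the cohesin subunit that closes the ring, had values of -3.06, -3.43 and -2.43 in early Dunn and -3.67, -3.26 and -3.46 in late Dunn cells. Its Dunn means were -2.97 at the early and -3.46 at the late passage, with overlapping groups. In LM8 cells its values were -3.71, -3.56 and -3.66 at the early and -3.76, -4.01 and -3.95 at the late passage. Its late LM8 arrays lay below its early LM8 arrays on every slide, by 0.06 to 0.45, but the difference of -0.27 (SE 0.18) did not pass the test (limma adjusted p = 0.391) and was 0.10 without scaling.

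Brdt, which reads acetylated histones in the testis, was the one gene of the list called higher in LM8 than in Dunn cells at both passages by the rule of over 2-fold and an unadjusted p under 0.05. Its brighter probe gave -4.61, -4.03 and -4.01 in early Dunn, -3.90, -4.80 and -4.60 in late Dunn, -2.87, -2.84 and -2.93 in early LM8, and -3.13, -3.20 and -3.20 in late LM8 cells. All 6 LM8 arrays lay above all 6 Dunn arrays, and early Dunn replicate 1 was the only array on which this probe was not well above background. The difference was 1.34 (SE 0.31) at the early passage, with a limma adjusted p = 0.0702, and 1.26 (2.39-fold, SE 0.30) at the late passage, with a limma adjusted p = 0.11. It held within each slide, at 1.08 to 1.74 for early and 0.77 to 1.61 for late cells. Single arrays decided whether it was called: without early Dunn replicate 2, or without late Dunn replicate 1, 1 gene of the list, Brdt, passed at an adjusted p under 0.05 at that passage, with 16.4% and 9.41% of all genes. The other Brdt probe differed by 0.13 (SE 0.33) at the early and 0.95 (SE 0.30) at the late passage, with limma adjusted p of 0.766 and 0.187. With passage, the brighter probe differed by -0.22 in Dunn (SE 0.39) and -0.30 in LM8 cells (SE 0.17), with limma adjusted p of 0.937 and 0.331.

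Dnd1, Sohlh2 and Tex101 were detected on all 3 arrays of LM8 groups only. Dnd1, an RNA-binding protein that protects germ cells, had values of -4.43, -4.19 and -3.89 in early and -4.51, -3.95 and -3.83 in late LM8 cells, with a difference of 0.07 (SE 0.26, limma adjusted p = 0.891). In Dunn cells its values were -4.86, -3.69 and -4.05 at the early and -6.01, -4.01 and -7.88 at the late passage, with detection on replicate 2 only. The LM8 and Dunn groups overlapped at both passages, with differences of 0.03 (SE 0.40, limma adjusted p = 0.956) at the early and 1.87 (SE 0.99, limma adjusted p = 0.281) at the late passage, the latter being the highest late difference of the list.

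Sohlh2, a transcription factor of spermatogonia and oocytes, had values of -5.07, -5.15 and -5.54 in early and -5.72, -5.24 and -5.42 in late LM8 cells. In Dunn cells it gave -4.95, -4.53 and -4.11 at the early and -4.02, -5.38 and -6.16 at the late passage. Although it was detected on 1 of 3 arrays in either Dunn group, the Dunn means of -4.53 and -5.19 were no lower than the LM8 means of -5.25 and -5.46. Tex101, a surface glycoprotein of germ cells, had values of -7.14, -5.93 and -8.53 in early and -6.41, -6.74 and -6.73 in late LM8 cells, with detection on 1 and 3 arrays. These groups overlapped, and the difference of 0.57 (SE 0.61) did not pass the test (limma adjusted p = 0.602). In Dunn cells Tex101 was detected on no array.

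**Figure D2:**
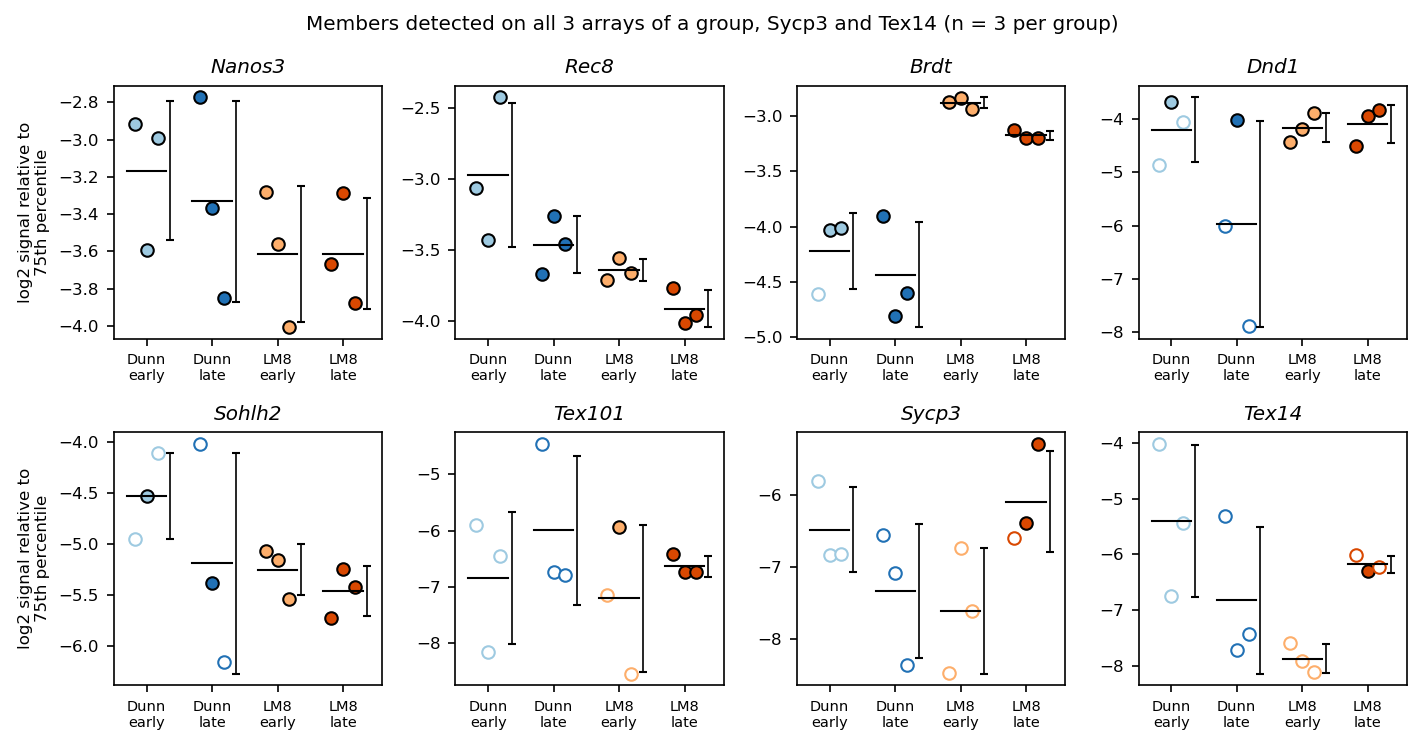
Scaled log2 signal (vertical axes, on a scale of its own in each panel) in early and late Dunn and LM8 cells (horizontal axes) of the 6 genes detected on all 3 arrays of a group and of Sycp3 and Tex14. Each point is 1 array, filled where well above background and open where not; the line is the mean and the bar beside it the SD of 3 arrays. All LM8 points of Brdt lie above all its Dunn points, and the late LM8 points of Tex14 lie above the early LM8 points although only 1 of them is filled.

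Long culture switched on none of the germline genes by the criterion of detection on 0 of 3 early and 3 of 3 late arrays. The count was 0 in Dunn cells, compared with 0.963% of all genes, and 0 in LM8 cells, compared with 1.02%. None was switched off either, compared with 0.0993% of all genes in Dunn and 0.467% in LM8 cells. With detection by a probe on at most 1 of 3 early and at least 2 of 3 late arrays, the count was 1 in Dunn cells (Brdt, by its dimmer probe, where 8.89% of all genes met it) and 3 in LM8 cells (Sycp1, Sycp3 and Tex101, where 4.11% met it).

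In late versus early Dunn cells, 1 of the 34 genes was differentially expressed at over 2-fold and an unadjusted p under 0.05 with limma. Of all genes, 5.48% met this rule, with 1.65% higher and 3.83% lower. The gene was Gtsf1, a zinc finger protein of the piRNA pathway, with scaled log2 signals of -4.20, -4.76 and -4.82 in early and -5.94, -6.57 and -5.47 in late Dunn cells. The 2 groups did not overlap, but each had only 1 array well above background. The difference was -1.40 (SE 0.41, limma adjusted p = 0.764). With the slide as a block the count was 11, all lower, with 3716 of 20137 genes called, and without late Dunn replicate 1 it was also 11, all lower, with 3315 of 20125 genes called. No germline gene passed at over 2-fold, an adjusted p under 0.05 and detection on all arrays of the higher group, where 0.00497% of all genes did, and none passed with the methods' t-test after adjustment.

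In late versus early LM8 cells, 7 of the 34 genes met the rule of over 2-fold and an unadjusted p under 0.05, compared with 8.77% of all genes (3.23% higher and 5.55% lower). Those with lower signal were Gtsf1, the RNA helicase Mov10l1, Piwil2, the cohesin subunit Smc1b and 1 probe of Hormad1, and those with higher signal were Tex14, Sycp3 and the other probe of Hormad1. The lower 5 were detected on no array of either LM8 group. Their differences ran from -1.54 (Piwil2, SE 0.58) to -1.25 (Gtsf1, SE 0.50), and their limma adjusted p from 0.08 to 0.297. All genes had a median difference of -0.18 in LM8 cells, and those never detected of -0.49. No germline gene passed at an adjusted p under 0.05 together with detection on all arrays of the higher group, a rule that 2.62% of all genes met (0.978% higher and 1.64% lower), and none passed it with the methods' t-test. Without early LM8 replicate 3 the looser count was 11, with 13.6% of all genes called, and without late LM8 replicate 3 it was 3, with 7.45%.

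Tex14 had the smallest p-value of the list in this comparison. It was chosen for description after its values were seen, as were Sycp3, Hormad1, Gtsf1, Stag3, Tdrd9 and the genes detected on single arrays. Its scaled log2 signals were -7.60, -7.92 and -8.11 in early and -6.01, -6.29 and -6.23 in late LM8 cells, and the 2 groups did not overlap. The fitted difference was 1.70 (SE 0.21, limma adjusted p = 0.0111), at 1.59, 1.63 and 1.88 within the 3 slides. However, only late replicate 2 was well above background, so no fold is given. With normexp background correction the difference was 0.23, and with a floor on dim signals 0.28. In Dunn cells Tex14 gave -4.02, -6.75 and -5.43 at the early and -5.31, -7.72 and -7.44 at the late passage, all not well above background, with a difference of -1.42 (SE 0.96, limma adjusted p = 0.782). The 4363 genes detected on no array had a median difference of -0.94 in Dunn cells, where 111 of them lay above 0.

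Sycp3 had a similar pattern with a larger spread. It gave -8.47, -6.74 and -7.61 in early and -6.60, -6.39 and -5.29 in late LM8 cells, where the last 2 were well above background. The 2 groups did not overlap. The fitted difference was 1.51 (SE 0.52, limma adjusted p = 0.272). In Dunn cells Sycp3 gave -5.81, -6.83 and -6.82 at the early and -6.56, -7.08 and -8.35 at the late passage, with a difference of -0.85 (SE 0.59, limma adjusted p = 0.782) and overlapping groups.

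An interaction term fitted to all 12 arrays compared the response to passage in LM8 with that in Dunn cells. With an unadjusted p under 0.05 and an interaction of over 2-fold, 2 of the 34 genes were called, Tex14 at 3.12 (SE 1.03, limma adjusted p = 0.508) and Sycp3 at 2.36 (SE 0.85, limma adjusted p = 0.631). This share of 5.88% was close to the 6.19% of all genes called (3.79% above 0 and 2.40% below). Neither passed after adjustment. Under the stricter rule 0 germline genes and 0.670% of all genes were called.

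Hormad1, a protein of the meiotic chromosome axis, gave opposite values by probe. In LM8 cells 1 probe differed between late and early cells by -1.44 (SE 0.30, limma adjusted p = 0.08) and the other by 1.01 (SE 0.30, limma adjusted p = 0.209), both without overlap of the groups. The former was detected on no LM8 array and the latter on late replicate 2 only. The probes disagreed in direction, so no direction is given for the gene.

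Several genes were detected on slide 1 of the Dunn cells alone. Tdrd9, a helicase of the piRNA pathway, had raw signals of 199 on early and 104 on late Dunn replicate 1, and of 3.39 to 17.2 on the other 10 arrays. Nanos2, an RNA-binding protein of spermatogonial stem cells, had 126 on late Dunn replicate 1 and at most 10.3 elsewhere. Zp3, a protein of the egg coat, had 91.5 on that array and at most 14.4 elsewhere. Spo11 with 64.5 and Tex15 with 50.6 were likewise detected on that array only. These 4 genes of the 34 compare with 6.53% of all genes that were detected on late Dunn replicate 1 and on no other array. Since no other late Dunn array showed them, they add no replicated difference with passage.

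When LM8 was compared with Dunn cells at the early passage, 18 of the 34 genes met the looser rule, 1 higher (Brdt) and 17 lower, while 43.0% of all genes met it (5.69% higher and 37.6% lower). At the late passage 6 met it, Brdt higher and 5 lower, compared with 16.2% of all genes (6.01% higher and 10.3% lower). The median difference of the 34 genes was -1.59 at the early and -1.41 at the late passage, compared with -0.76 and -0.55 for all genes. Among the 17 undetected genes it was -1.69 and -1.49, and among all 4363 genes detected on no array -1.78 and -1.35. The stricter rule called 0 of the 34 genes at either passage, compared with 3.73% of all genes at the early (1.51% higher and 2.21% lower) and 3.84% at the late passage (1.40% higher and 2.44% lower).

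Stag3 and Gtsf1 were the genes of the list with an adjusted p under 0.05 at the early passage. Stag3, a meiotic cohesin subunit, gave -5.42, -4.84 and -6.17 in early Dunn and -8.27, -8.54 and -8.77 in early LM8 cells. Only early Dunn replicate 2 was well above background, and the difference was -3.05 (SE 0.42, limma adjusted p = 0.0148). Gtsf1 gave -6.65, -7.65 and -7.40 in early LM8 cells, all below its early Dunn values, with a difference of -2.64 (SE 0.39, limma adjusted p = 0.0192), and only early Dunn replicate 2 was well above background. With a floor on dim signals the differences were -2.09 for Stag3 and -2.11 for Gtsf1 (limma adjusted p = 0.0337 for either). Dazl, detected on no array, gave -1.75 with the floor at the same limma adjusted p. In that setting 30 of the 34 genes met the looser rule, with 56.3% of all genes. The floor therefore gives Stag3 and Gtsf1 no separate support. At the late passage Gtsf1 differed by -2.50 (SE 0.56, limma adjusted p = 0.0958). Tdrd9 at both passages and Spo11 at the late passage, detected on replicate 1 alone in Dunn cells, had larger differences than Gtsf1, with a larger spread. That of Tdrd9 was -3.08 (SE 1.46, limma adjusted p = 0.149) at the early and -2.77 (SE 1.23, limma adjusted p = 0.278) at the late passage, and that of Spo11 at the late passage was -2.77 (SE 1.07, limma adjusted p = 0.243).

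The promoters of the list were compared with those of other genes by their content of CpG. A window of 250 bases before to 50 bases after the start was given for 30 of the 35 genes. Its ratio of observed to expected CpG had a median of 0.693, compared with 0.389 over 27025 genes, and it was at least 0.6 (CpG-rich) in 18 of 30 genes (60.0%), compared with 36.5% of all genes. The gap was smaller among genes with a probe, where the median was 0.70 for 29 germline genes and 0.62 for all 15982, and 62.1% and 51.8% were CpG-rich. On these arrays 85.3% of all genes with a CpG-rich window (7062 of 8283) were detected on all 3 arrays of at least 1 group, but only 3 of the 18 germline genes (16.7%) were: Brdt, Rec8 and Tex101. Among CpG-poor windows the shares were 39.7% for all genes (3056 of 7699) and 2 of 11 for germline genes (18.2%), Nanos3 and Sohlh2. Dazl, with a ratio of 0.80, Ddx4, with 0.98, and Tdrd5, with 1.11, were among the CpG-rich genes that were detected on no array. Nanos3 at 0.13 and Nanos2, whose window held 0 CpG pairs, were at the low end. The genes were partly chosen for silencing by methylation, so that the low share detected among CpG-rich members is a description of the list and not an independent result.

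**Figure D3:**
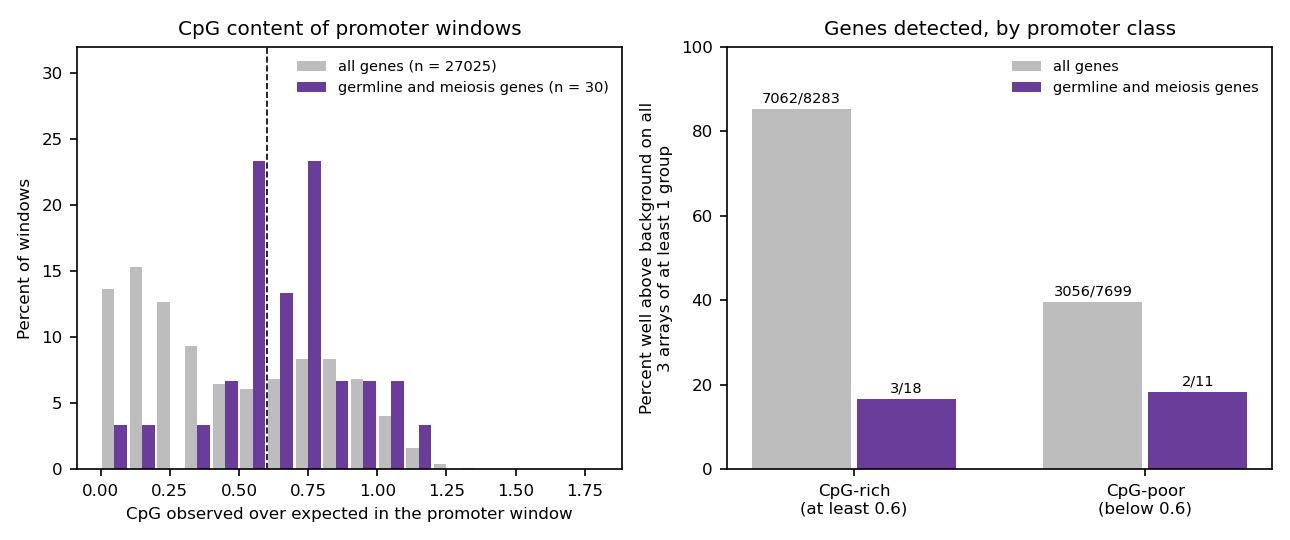
Left, percent of promoter windows (vertical axis) by the ratio of observed to expected CpG (horizontal axis, in steps of 0.1) for all 27025 genes and for 30 germline and meiosis genes; the dashed line marks 0.6. Right, percent of genes detected on all 3 arrays of at least 1 group (vertical axis) in CpG-rich and CpG-poor classes, with counts over the bars; 85.3% of all CpG-rich genes but 16.7% of the CpG-rich germline genes were detected.

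The windows were searched on both strands for the letters GCGGGA, from the core of the E2f6 motif, and CACGTG, the E-box bound by Mga and Max. GCGGGA was found in 13 of 30 windows (43.3%), compared with 20.0% of all windows, and CACGTG also in 13 (43.3%), compared with 7.24%. Among genes with a probe the shares were 44.8% against 27.4% for GCGGGA and 44.8% against 8.40% for CACGTG. Among CpG-rich windows of genes on the array, GCGGGA was in 11 of 18 members (61.1%) and 43.6% of all genes, and CACGTG in 10 of 18 members (55.6%) and 11.6% of all genes. Of all CpG-rich genes with CACGTG, 86.3% were detected on all 3 arrays of at least 1 group, whereas of the 10 germline genes with it only Brdt was. In the printed sequences CACGTG is found in Sycp3 and Brdt and GCGGGA in Sycp3 and, on the opposite strand, Tex14. A match is a description of the letters and does not show that a factor was bound.

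RNA of most genes of the machinery known to act on germline promoters was detected in both lines at both passages. Of 13 listed genes (the methyltransferases Dnmt1, Dnmt3a, Dnmt3b and Dnmt3l, the hemimethylation reader Uhrf1, E2f6, Pcgf6, Mga, Max and L3mbtl2 of the Polycomb complex, and the H3K9 methyltransferases Setdb1, Ehmt1 and Ehmt2), 12 were detected on all 3 arrays of at least 1 group and 11 on all 12 arrays. Dnmt3l was the exception among the 13, and 62.8% of all genes were detected on all 3 arrays of at least 1 group. None of the 13 was called between late and early cells of either line, under the looser or the stricter rule with limma or the looser rule with the methods' t-test. With limma the looser rule called 5.48% of all genes in Dunn and 8.77% in LM8 cells, and the stricter rule 0.00497% and 2.62%. With the t-test the looser rule called 4.68% and 6.18%. For 13 genes, 0 calls lie near these shares. The median difference of the 13 with passage was -0.36 in Dunn and -0.05 in LM8 cells, compared with -0.34 and -0.18 for all genes. Dnmt1, which copies methylation after replication, differed by -0.60 in Dunn (SE 0.32, limma adjusted p = 0.782) and by -0.17 in LM8 cells (SE 0.19, limma adjusted p = 0.608). Between LM8 and Dunn cells the looser rule called 4 of the 13 at the early passage, where 43.0% of all genes met it. Setdb1 was higher in LM8 and Dnmt1, Dnmt3b and L3mbtl2 were lower. At the late passage it called 3 (16.2% of all genes), Pcgf6 higher and Dnmt3b and L3mbtl2 lower. The stricter rule called 0 of the 13 at either passage (3.73% and 3.84% of all genes).

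A further 34 germline genes of the same roles were listed, 32 of them with a probe. Of these 32, 12 were detected on all 3 arrays of at least 1 group (62.8% of all genes were) and 11 on no array, and 6 (Mlh3, Msh5, Prdm9, Psmc3ip, Taf7l and Tdrd7) on all 12 arrays. With passage, the stricter rule called 0 of 32 in Dunn and 1 in LM8 cells, where 0.00497% and 2.62% of all genes met it. The looser rule called 3 in Dunn (Ddx25 higher, Mlh3 and Tdrd12 lower) and 2 in LM8 cells (Fkbp6 and Pld6 lower), where 5.48% and 8.77% of all genes met it. The gene that passed the stricter rule was Pld6, a mitochondrial enzyme of piRNA biogenesis. It gave -3.48, -3.62 and -3.64 in early LM8 cells, all well above background, and -6.93, -6.72 and -7.27 in late LM8 cells, where only replicate 2 was. It fell by 3.39 on the log2 scale (SE 0.21, limma adjusted p = 8.74e-04) with the undetected signals taken as measured, and by 3.11 (SE 0.19, limma adjusted p = 2.22e-06) with a floor on dim signals.

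A pair of recombination genes, named after their values were seen, separated the 2 lines at both passages and in opposite directions. Meiob, which binds single-stranded DNA in meiotic recombination, was detected on all 6 LM8 arrays, at -2.56 to -1.30, and on no Dunn array, at -7.93 to -4.28. It was at least 6.79-fold higher in LM8 than in Dunn cells at the early passage (limma adjusted p = 0.0253) and at least 16.6-fold higher at the late passage (limma adjusted p = 0.0759). Mei4, needed for meiotic double-strand breaks, was detected on replicates 2 and 3 of both Dunn groups with both of its probes, and on no LM8 array. By the brighter probe it differed between LM8 and Dunn cells by -3.87 (SE 0.42, limma adjusted p = 0.00603) at the early and -3.99 (SE 0.58, limma adjusted p = 0.0316) at the late passage. With a floor on dim signals these differences were -2.63 (limma adjusted p = 0.00861) and -2.63 (limma adjusted p = 0.0117). The dimmer probe gave -1.99 (limma adjusted p = 0.0337) and -1.76 (limma adjusted p = 0.11) with the floor. Dazl, detected on no array, gave -1.75 and -1.19 with the floor. Neither Meiob nor Mei4 differed with passage beyond the spread between arrays in either line, with limma adjusted p from 0.297 to 0.999 over the probes of both genes.

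Rhox5, a homeobox gene of the reproductive tract on chromosome X that is listed here among the Sertoli cell markers, had the greatest difference with passage of the listed genes. Its scaled log2 signals in Dunn cells were -0.34, -0.39 and -0.60 at the early and 3.06, 2.84 and 2.99 at the late passage. LM8 cells had -4.37, -4.40 and -4.78 early against 1.43, 1.35 and 1.22 late, and all 12 arrays were well above background. In LM8 cells it rose by 5.85 (57.6-fold, SE 0.20, limma adjusted p = 1.11e-04). In Dunn cells the difference was 3.41 (10.6-fold, SE 0.28), with no overlap, but at a limma adjusted p of 0.108. The interaction of line and passage was 2.44 (SE 0.30, limma adjusted p = 0.00671). The other 13 markers of other cells were not called between late and early cells of either line, including the remaining Sertoli cell markers Amh and Dhh.

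**Figure D4:**
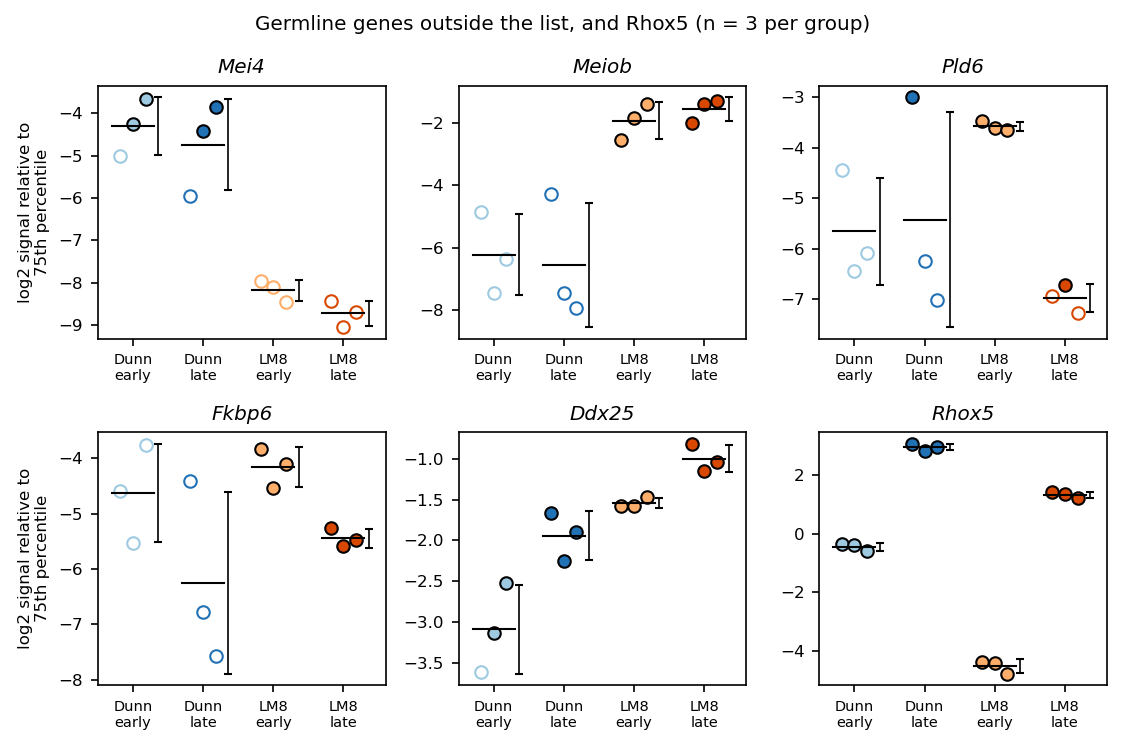
Scaled log2 signal (vertical axes, on a scale of its own in each panel) in early and late Dunn and LM8 cells (horizontal axes) for 5 germline genes outside the list and for Rhox5. Each point is 1 array, filled where well above background and open where not, with the mean (line) and SD (bar) of 3 arrays; Mei4 and Meiob separate the lines, Pld6 is lower on all late LM8 arrays than on the early ones, and Rhox5 is higher in late cells of both lines.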

How the data were processed

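Total RNA of early and late Dunn and LM8 cells was hybridised by the authors to Agilent single-colour mouse arrays. The authors deposited the output of Agilent Feature Extraction (version 10.7.3 per the submitters' processing notes), whose processed signal is a background-subtracted intensity in linear units, not scaled between arrays. A deposited table of intensities of all 12 arrays held the same values to within 0.497%. All of its columns were assigned to samples, and 0 were left out.

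Control spots and outlier spots were removed, 43020 spots were averaged into 39429 probes, and each array's 75th percentile was subtracted from its log2 signals. Accessions matched 26581 probes (67.4%) to 20144 genes of RefSeq GRCm38.p6. Comparisons used limma 3.58.1 (R 4.3.3) on the 6 arrays concerned, without a block, with Benjamini-Hochberg adjustment over all probes, and the interaction was fitted over 12 arrays. The looser rule was over 2-fold at an unadjusted p under 0.05. The stricter rule was over 2-fold at an adjusted p under 0.05 with every array of the higher group well above background. A gene counted when any of its probes did. A gene's values are those of its probe with the highest mean. Lower limits of fold, given only where every array of the brighter group was well above background, set its mean against a floor taken on each dim array, which was the lowest signal counted as well above background or, if higher, the signal of that probe. Python 3.11.15 with pandas 2.3.3, numpy 2.4.6 and matplotlib 3.10.9 served for tables and plots.

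The genes and lists were chosen with earlier results of these data known. Genes of the list were named individually where detected on all 3 arrays of a group or called by the stricter rule, and those of other lists where called with passage; others are said to be chosen after their values were seen, or are given by counts. Replicate numbers mark the slide. Deviations from group means in 18 same-numbered pairs correlated at -0.23 to 0.68, over 0.1 in 12 pairs. Alternatives were quantile normalization, normexp correction (offset 50) of the median and background signals followed by quantile normalization (the mean signal was not among the columns used here), no scaling, a floor, detection filters, 1 probe per gene, the slide as block, array weights, 1 fit over all arrays, the methods' t-test and leaving out each array. The fits were tested on simulated data.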

Additional observations from a re-analysis of the deposited data

Results flagged for a closer look

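Sycp3 and Tex14 stood out because their differences with passage ran in opposite directions in the 2 lines on all 3 slides. For Sycp3 the late minus early log2 difference was -0.75, -0.26 and -1.53 in Dunn and 1.87, 0.35 and 2.32 in LM8 cells, and the interaction was 2.36 (limma adjusted p = 0.631). For Tex14 it was -1.29, -0.97 and -2.01 in Dunn and 1.59, 1.63 and 1.88 in LM8 cells, and the interaction was 3.12 (limma adjusted p = 0.508). Neither passed the adjusted test of the interaction, and both genes were not well above background on any Dunn array. The looser rule for the interaction called 5.88% of the list and 6.19% of all genes. In Dunn cells the difference of Sycp3 turned to 0.12 without scaling, and its sign also turned with normexp correction. The 4363 genes detected on no array had a median difference with passage of -0.94 in Dunn (111 of them above 0) and -0.49 in LM8 cells (414 above 0).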

How the results depend on the processing

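In late versus early Dunn cells, the count of germline genes at over 2-fold and an unadjusted p under 0.05 was 1 as reported (5.48% of all genes), 5 with quantile normalization (8.94%), 3 with 1 fit over all 12 arrays (8.12%), 11 with the slide as replicate block (18.5%) and 21 with array quality weights (48.3%). It was 0 with normexp correction, without scaling, with a floor on dim signals and with only probes well above background (3.20%, 10.5%, 4.42% and 9.08% of all genes). With any 1 array left out it was 0 to 11, and 11 was reached without late Dunn replicate 1 (16.5%). In LM8 cells the count was 7 as reported (8.77% of all genes) and 3 with quantile normalization (6.29%), without scaling (8.73%), with 1 fit over all 12 arrays (4.90%) or with the methods' t-test (6.18%). It was 0 with normexp correction (1.73%), a floor on dim signals (5.37%) or only probes well above background (8.44%). With any 1 array left out it was 3 to 11, with 3 without late replicate 3 (7.45%), 4 without early replicate 1 (7.97%) or late replicate 2 (6.83%) and 11 without early replicate 3 (13.6%). The replicate block gave 6 (8.92%). The causes were not tested, except that only 6 of the genes enter the test when probes must be well above background.

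For LM8 versus Dunn, the count at an adjusted p under 0.05 and detection on all arrays of the higher group was 0 as reported (3.73% of all genes early, 3.84% late). At the early passage it was 1 (Brdt) without scaling (11.3%), with only probes well above background (18.4%), with 1 probe per gene (5.55%) and with 1 fit over all 12 arrays (10.6%), and 2 (Brdt and Rec8) with array quality weights (26.3%). At the late passage it was 1 (Brdt) with only probes well above background (15.6%), array quality weights (6.68%) and 1 fit over all 12 arrays (7.58%). Leaving out 1 array gave 0 to 1 at either passage. The block, or pairing by slide, gave 0 at both passages. For the interaction of line and passage the count was 0 under every alternative run.

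With the software's mark for a positive and significant signal in place of well above background, the genes detected on all 3 arrays were 7 in early Dunn (55.6% of all genes), 11 in late Dunn (64.8%), 12 in early LM8 (69.0%) and 10 in late LM8 cells (70.6%). The genes switched on were then 1 in Dunn (Smc1b, 1.58% of all genes) and 1 in LM8 (Tex14, 0.695%), and 1 (Hormad1) was switched off in LM8 cells (0.566%). With detection on at least 2 of 3 arrays at one passage and at most 1 at the other, 1 was switched on in Dunn (8.89%) and 3 in LM8 cells (4.11%).

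Scaling set the sign of small differences with passage. Unscaled, the median of all genes was 0.62 in Dunn and 0.19 in LM8 cells, against -0.34 and -0.18 as reported. Unscaled differences in Dunn cells were 0.48 for Rec8, 0.75 for Brdt, 0.80 for Nanos3, 0.31 for Sohlh2 and 0.12 for Sycp3, and in LM8 cells 0.10 for Rec8, 0.07 for Brdt and 0.16 for Sohlh2, all opposite in sign to those reported. Tex101 turned to -0.0175 with normexp correction, -0.96 with the floor and -0.11 with weights in Dunn cells and to -0.30 with the floor in LM8 cells. Since Tex101 was detected on no Dunn array, the value of -0.96 is only the difference between the arrays' floors, as for Dazl. Sycp3 in Dunn cells turned to 0.0665 with normexp correction. Nanos3 in LM8 cells turned to -0.0805 with quantile normalization, -0.0062 with normexp correction and -0.24 with weights, and Dnd1 to -0.0032 with quantile normalization. Leaving out 1 array gave -0.0926 to 1.21 for Tex101, -0.19 to 0.17 for Nanos3 and -0.0594 to 0.28 for Dnd1 in LM8 cells, and -0.44 to 0.10 for Nanos3 in Dunn cells. Of 284 such alternatives for named genes 24 turned the sign. Only 1 of these differences, that of Tex14 in LM8 cells, had passed the adjusted limma test. Its sign did not turn, but Tex14 was detected on only 1 late LM8 array.

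Tex14 in LM8 cells kept its direction in every setting that gave a value, at 1.58 to 1.84 with 1 array left out, and its limma adjusted p was 0.0407 with the replicate block, 0.82 with 1 fit over all 12 arrays, 0.16 with normexp correction and 0.322 with the floor. With only probes well above background, Sycp3 and Tex14 gave no value. The number of arrays and the low signal of most of these genes limit the precision.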
